A study of Mus musculus with 4 samples.

Results

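Immediate early genes are the genes that cells transcribe first, without new protein synthesis, when growth factors, stress or the handling of tissue reach them. Here 10 of them (Fos, Fosb, Jun, Junb, Jund, Egr1, Ier2, Atf3, Dusp1 and Btg2) were followed in the RNA held by a Runx1 antibody or by IgG. They were listed by name as early response genes, by a rule that uses no measured value, though with earlier results of these data known. All 10 were found among the 55573 genes of the table and among the 12401 genes that had enough counts to be tested. The libraries came from RNA immunoprecipitation sequencing (RIP-seq), in which an antibody on beads holds a protein together with its bound RNA and that RNA is sequenced. All material was from wild-type C57BL/6 mouse embryos at embryonic day 10, from cells of the caudal part sorted for CD31, an adhesion molecule that marks endothelium and part of the blood lineage. An antibody to Runx1 was used for 2 libraries; Runx1 is the transcription factor with which endothelium gives rise to blood stem cells. The other 2 libraries were made with IgG, the antibody control. The groups shared genotype, strain, age, tissue and sort and differed in the antibody. Whether the replicates are separate embryos or sorts is not labelled, and p-values here cover library-to-library spread that may be only technical.

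FOS and JUN proteins join through leucine zippers into the AP-1 transcription factor, which binds DNA as a dimer. Growth factor and stress kinases (ERK, p38 and JNK) act on factors such as SRF with its ELK partners, CREB and JUN that already sit on these genes, so transcription starts within minutes and soon stops. The mRNAs are then removed quickly, in part through AU-rich elements in the 3′ UTR that recruit decay proteins such as ZFP36. Because enzymatic dissociation and sorting of tissue switch the genes on, their mRNAs are a widely used sign of handling in sorted cells. Some of them also act in vessels, where blood flow and VEGF raise Egr1 and Dusp1.

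The AUUUA motif of AU-rich elements lies in the RNA itself, which is what a pull-down recovers. How long each mRNA lasts was not measured here. The densest AUUUA stretch of the 3′ UTR is shown for 5 members, read 5′ to 3′ from the GENCODE M21 transcripts, with each AUUUA in capitals.
Fos: uuguguuuucaAUUUAUUUAuuaagaugga
Dusp1: agcugguccuuAUUUAUUUAacaccccccu
Btg2: aAUUUAuuuguagaugugugcaauAUUUAc
Jun: aucAUUUAuaaucauaggaaagAUUUAgua
Fosb: cccacccccagcuAUUUAucccuuuccugg
Fos and Dusp1 carry AUUUAUUUA, in which adjacent copies share their end base. Fosb has a lone AUUUA in a 3′ UTR of 2145 bases. Of the other members, Atf3 has 3 copies, Junb and Egr1 have 2 each, Jund has 1 and Ier2 has 0 in 755 bases. Btg2 has the most, 5 in 2199 bases. The motif was searched on the RNA strand alone. At least 1 AUUUA was present in 9 of 10 members and in 73.1% of the 10638 tested coding genes with a 3′ UTR. The overlapping form was in 2 of 10 members and 7.05% of those genes. The median density was 2.40 copies per kilobase of 3′ UTR over the members and 1.41 over the tested coding genes.

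The promoters of the members were searched in the RefSeq windows of build GRCm38.p6 around the annotated start, which hold 8 of the 10; Egr1 and Ier2 were not matched. The cAMP response element TGACGTCA, the site of CREB, was in 2 of 8 members and 1.79% of the 32851 windows. Both copies are shown with the element in capitals, on the strand of the gene.
Btg2, chr1:134079303-134079332, minus strand: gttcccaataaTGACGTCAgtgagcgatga
Dusp1, chr17:26508597-26508626, minus strand: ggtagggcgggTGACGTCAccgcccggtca
Relative to the annotated start, the element begins at position -166 in Btg2 and -143 in Dusp1. The shorter form TGACG, which lies within it, was in 6 of 8 members (Atf3, Btg2, Dusp1, Fos, Fosb and Junb) and 20.8% of windows. The CArG box, the site of SRF, was in 0 of 8 and 1.63% of windows, and TGTGGT, a core of RUNX sites, in 0 of 8 and 16.8%. Each motif was searched on both strands, and only these letters in this window were examined. A member was counted if any of its windows held the motif, while the percentages are of single windows. Sites further from the start were not searched, so 0 of 8 does not show that these genes lack the site.

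Gene counts totalled 1675488 and 1887301 in the Runx1 libraries, and 3843318 and 2482045 in the IgG libraries. Levels are gene counts scaled to a library total of 1000000 (CPM), so they give a share of the recovered RNA, and an input library was not analysed here. A count of 3 corresponds to 0.781 to 1.79 CPM, well under the lowest member value. Markers of the labelled cells were present, with 11 of 12 endothelial genes tested and Sox17 too low, and their summed level was 1450 to 1837 CPM with Runx1 and 1755 to 1797 with IgG. Fewer cells of a type and less RNA per cell cannot be told apart in such bulk libraries.

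None of the 10 immediate early RNAs differed between the antibodies at an edgeR false discovery rate of 0.05 adjusted over all 12401 genes. Fos, Ier2, Dusp1, Jund and Btg2 were nonetheless at a higher share in both Runx1 libraries than in both IgG libraries, Fosb was at a lower share in both, and Jun, Junb, Egr1 and Atf3 overlapped. Across all tested genes 23.1% lay wholly higher and 22.2% wholly lower. A rise was called for 0.306% of tested genes and a fall for 0.339%. Among the 2381 genes with a mean of at least 100 CPM, the abundance of 4 members, 3.28% were called. By unadjusted edgeR p (threshold 0.05) Fos and Ier2 passed, 2 members, both higher, beside 6.88% of tested genes higher and 7.35% lower. With DESeq2 0 members were called among the 6 that kept an adjusted p, and with limma-voom 0 of 10. DESeq2 called 4.34% of the 5669 genes with an adjusted p higher and 6.07% lower, and limma-voom 0.823% and 0.968% of all tested genes.

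**Figure D1:**
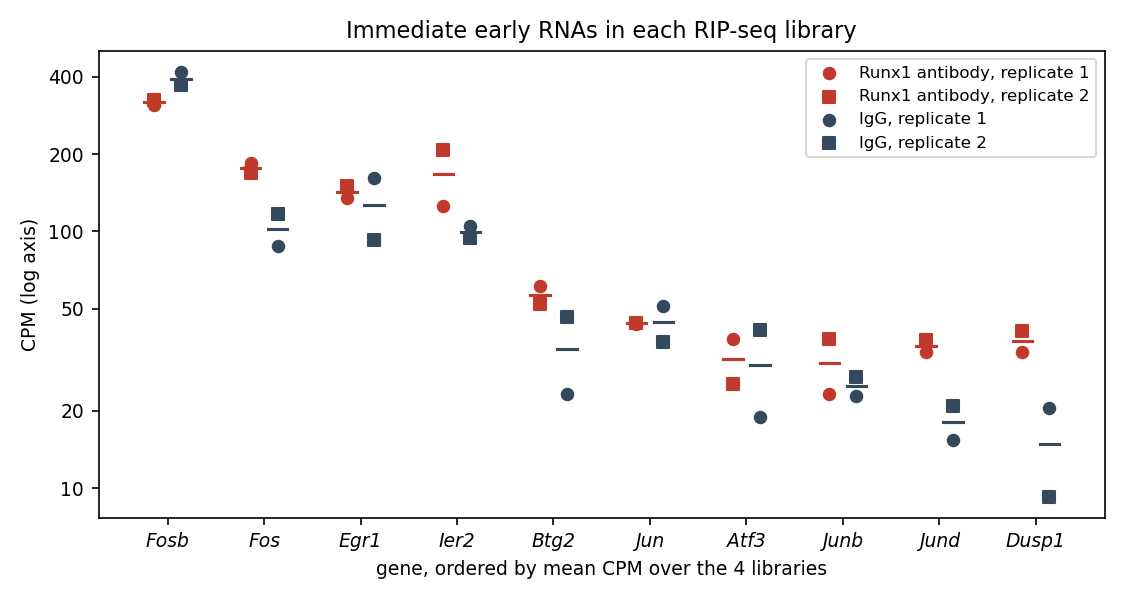
CPM on a log axis for each of the 10 genes in each library, with circles for replicate 1, squares for replicate 2 and short lines for the mean of each antibody. Fosb is the most abundant in all libraries and is lower with the Runx1 antibody, while Fos, Ier2, Btg2, Jund and Dusp1 have both red points above both dark ones.

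Fos, the prototype of the family and the usual partner of JUN, gave 309 and 319 counts in the Runx1 libraries, beside 337 and 290 in the IgG libraries. That is 184 and 169 CPM against 87.7 and 117 CPM. The replicates were close and the antibodies did not overlap, with means of 177 ± 10.9 and 102 ± 20.6 CPM (SD, n = 2 each). The fold change was 1.696, with a 95% interval of 1.11 to 2.59 (edgeR log2 fold change 0.76 ± 0.27 SE, unadjusted p = 0.0203, adjusted p = 0.253). Fos had the smallest p of the members.

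Fosb, a close relative that can also be spliced to a shorter and more stable form, differed in direction from Fos. It stood at 310 and 325 CPM with the Runx1 antibody and 417 and 370 CPM with IgG, the highest count of any member in every library (520, 613, 1604 and 918 counts). Both Runx1 libraries lay below both IgG libraries. The fold change of 0.791 (95% interval 0.606 to 1.03, edgeR log2 fold change -0.34 ± 0.17, adjusted p = 0.415) was the lowest of the 10, and its SE was the smallest. Fosb counts per Fos count were 1.68 and 1.92 with Runx1 and 4.76 and 3.17 with IgG, a comparison chosen after the values were seen. This ratio within a library does not depend on how libraries are scaled. Its groups do not overlap. No test is given for it, and the smallest exact two-sided permutation p that 2 libraries against 2 allow is 0.3333.

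The 3 Jun genes encode the partners of FOS. Jun, the strongest activator among them, was level, at 43.6 and 44.0 CPM for Runx1 beside 51.3 and 37.1 CPM for IgG. The Runx1 values lay between the IgG values (edgeR log2 fold change -0.043 ± 0.44, 95% interval -1.05 to 0.97, adjusted p = 0.983). Junb, a weaker activator that can oppose JUN, stood at 23.3 and 38.2 against 22.9 and 27.0 CPM, and the groups overlapped. Its log2 fold change was 0.28 ± 0.57 (95% interval -1.02 to 1.57, edgeR adjusted p = 0.895), and without Runx1 replicate 2 it was -0.15. Jund, which in most cells is made steadily and is the least inducible of the 3, stood at 34.0 and 37.6 against 15.4 and 20.95 CPM. Both Runx1 libraries were above both IgG libraries, on 52 to 71 counts per library (log2 fold change 0.95 ± 0.57, 95% interval -0.34 to 2.24, edgeR adjusted p = 0.510). Jund shares 52.6% of its transcript with the opposite-strand gene Gm11175, which had 0 counts in all 4 libraries. Jun shares 7.28% with Junos, which had 7 to 32 counts. The strand setting is not stated, so reads of such overlaps cannot be told apart.

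Atf3, a stress-induced factor that pairs with JUN and often represses, varied between replicates. It stood at 38.2 and 25.4 CPM for Runx1 beside 19.0 and 41.1 CPM for IgG. Both Runx1 values lay between the IgG values, which differed 2.16-fold (log2 fold change 0.056 ± 0.59, 95% interval -1.30 to 1.41, edgeR adjusted p = 0.983). Its direction followed single libraries, with -0.41 without IgG replicate 1, -0.29 without Runx1 replicate 1 and 0.70 without IgG replicate 2. Summed over Fos, Fosb, Jun, Junb, Jund and Atf3, the genes of the dimer-forming proteins took 634 and 639 CPM with Runx1 and 614 and 613 with IgG. The sum was thus nearly level, while Fos and Jund stood higher and Fosb, its largest part, lower within it. With Fosb and Atf3 left out, Fos, Jun, Junb and Jund took 285 and 289 CPM with Runx1 and 177 and 202 with IgG.

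Egr1, a zinc finger factor that SRF and its ELK partners switch on, was at 135 and 149.95 CPM for Runx1 beside 161 and 92.3 CPM for IgG. The groups overlapped because the IgG replicates differed 1.75-fold (log2 fold change 0.14 ± 0.32, 95% interval -0.58 to 0.86, edgeR adjusted p = 0.906). Without IgG replicate 2 the value was -0.22 and without IgG replicate 1 it was 0.58. Ier2, a small nuclear protein of the early response, stood at 125 and 208 against 105 and 93.9 CPM. Both Runx1 libraries were higher, replicate 2 by most (log2 fold change 0.72 ± 0.31, 95% interval 0.0075 to 1.43, edgeR unadjusted p = 0.0481, adjusted p = 0.346). Without Runx1 replicate 2 the Ier2 value was 0.28.

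Dusp1 and Btg2 act as brakes. Dusp1 encodes a phosphatase that switches off MAP kinases, and it had the largest fold change of the 10 on the lowest IgG count, with 57 and 77 counts for Runx1 beside 79 and 23 for IgG. Its levels were 34.0 and 40.8 against 20.6 and 9.27 CPM. The groups did not overlap, but the IgG replicates differed 2.22-fold. The fold change of 2.44 had a 95% interval of 0.903 to 6.60 (edgeR log2 fold change 1.29 ± 0.63, adjusted p = 0.403), and it ranged from 0.82 without IgG replicate 2 to 1.97 without IgG replicate 1 on the log2 scale. Btg2 encodes an antiproliferative protein that binds the CCR4-NOT deadenylase, and it stood at 61.5 and 51.9 against 23.2 and 46.3 CPM. Both Runx1 libraries were higher, though 51.9 lies close to 46.3 (log2 fold change 0.68 ± 0.49, 95% interval -0.43 to 1.80, edgeR adjusted p = 0.606). The Btg2 value was 0.25 without IgG replicate 1 and 1.25 without IgG replicate 2.

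**Figure D2:**
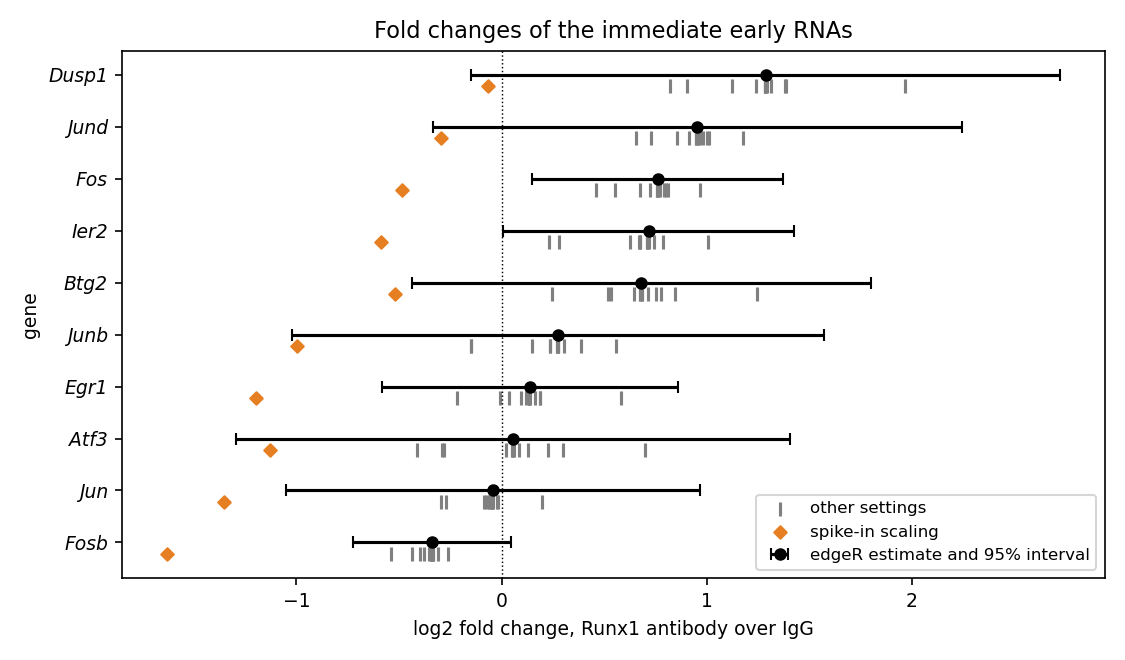
Log2 fold change of each gene, Runx1 antibody over IgG, with black points and bars for the edgeR estimate and its 95% interval, grey ticks for the other settings and orange diamonds for scaling to the spike-in RNAs. The intervals of Fos and Ier2 lie above 0, those of the other 8 include 0, and all diamonds lie below 0.

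With the 10 counts added up, immediate early RNA took 990 and 1089 CPM for Runx1 beside 923 and 855 CPM for IgG. The mean ratio was 1.17. Fosb made up 29.8% to 31.4% of the members' counts with Runx1 and 43.3% to 45.2% with IgG. Without Fosb, a sum looked at after its values were seen, the other 9 stood at 679 and 765 against 506 and 485 CPM, a ratio of 1.46. Of the 10, 8 had a log2 fold change above 0, beside 51.5% of all tested genes, and the median was 0.48 beside 0.027 over all tested genes. The median was 0.29 without Runx1 replicate 2 and 0.66 without IgG replicate 2. Short and GC-rich genes leaned the same way. Above 0 were 65.2% of the shortest quartile of tested genes, which holds 5 members. In the quartile of highest GC content, which holds 7, the share was 65.8%. After a correction for length and GC content, 5 of 10 members were above 0 and their median was 0.11.

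The libraries also hold synthetic ERCC RNAs, at 356 and 378 counts per 1000000 gene counts for Runx1 beside 129 and 175 for IgG. When libraries were scaled to these spike-ins, the median tested gene moved from 0.027 to -1.25 and every member stood below 0, from -0.067 for Dusp1 to -1.63 for Fosb. Relative to that median gene Dusp1 was at 1.19, Jund at 0.96, Fos at 0.77, Btg2 at 0.73, Ier2 at 0.67 and Fosb at -0.38. Under this scaling Fosb (edgeR adjusted p = 0.00224) and Egr1 (log2 fold change -1.20, edgeR adjusted p = 0.0418) were called lower, 2 of 10 members beside 31.6% of all tested genes. How much spike-in was added, and when, is not stated in the labels.

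Compared per kilobase of transcript, Ier2, Fosb and Fos led with both antibodies. With the Runx1 antibody, Ier2 stood at 109 ± 38.3 CPM per kilobase, Fosb at 84.0 ± 2.701 and Fos at 83.8 ± 5.17 (SD, n = 2), and these 3 did not differ beyond their spread. Egr1 followed at 31.8 ± 2.38, and the other 6 lay between 13.7 (Jun) and 21.5 (Jund). With IgG the order at the top was Fosb at 104 ± 8.88, Ier2 at 65.4 ± 5.22, Fos at 48.5 ± 9.78 and Egr1 at 28.2 ± 10.8 CPM per kilobase. The replicates of Fosb, Ier2, Fos and Egr1 did not overlap from each to the next, whereas those of Egr1 overlapped with those of Atf3. The other 6 lay between 7.49 (Dusp1) and 15.1 (Atf3), with overlapping neighbours. The top 4 genes were thus the same with both antibodies, while Fos and Fosb stood level with Runx1 and apart with IgG.

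The members differ in structure, and their fold changes were ordered partly as transcript length was. Jun, Junb, Jund and Ier2 are genes of a single exon, as are 2.06% of the tested coding genes, so their mRNA cannot be told from unspliced RNA. Their transcripts are GC-rich, from 55.5% in Jun to 67.1% in Jund, at percentiles 79.6 to 99.9 of tested coding genes. Fosb (3782 bases), Egr1 (4484) and Jun (3189) are the longest members and were 3 of the 4 with the lowest log2 fold changes. Across the 10, log2 fold change and log10 transcript length had a Pearson r of -0.62 and a Spearman rho of -0.55, given as a description of genes measured in the same 4 libraries. Over all 12396 tested genes with a length the values were -0.19 and -0.26. The median log2 fold change was 0.33 in the shortest quartile of tested genes, which holds 5 members (Atf3, Dusp1, Ier2, Junb and Jund), 0.15 in the next (Btg2, Fos and Jun), -0.030 in the third (Egr1 and Fosb) and -0.24 in the longest, which holds 0. By GC content, 7 members lay in the highest quartile, with a median of 0.30, and 0 in the lowest, with a median of -0.25. After a correction for length and GC content in each library the members' median was 0.11, beside 0.0037 over all genes, and 5 of 10 were above 0. The values were then 0.46 for Fos, 0.23 for Ier2, 0.90 for Dusp1, 0.66 for Jund, 0.52 for Btg2 and -0.54 for Fosb, with no call.

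**Figure D3:**
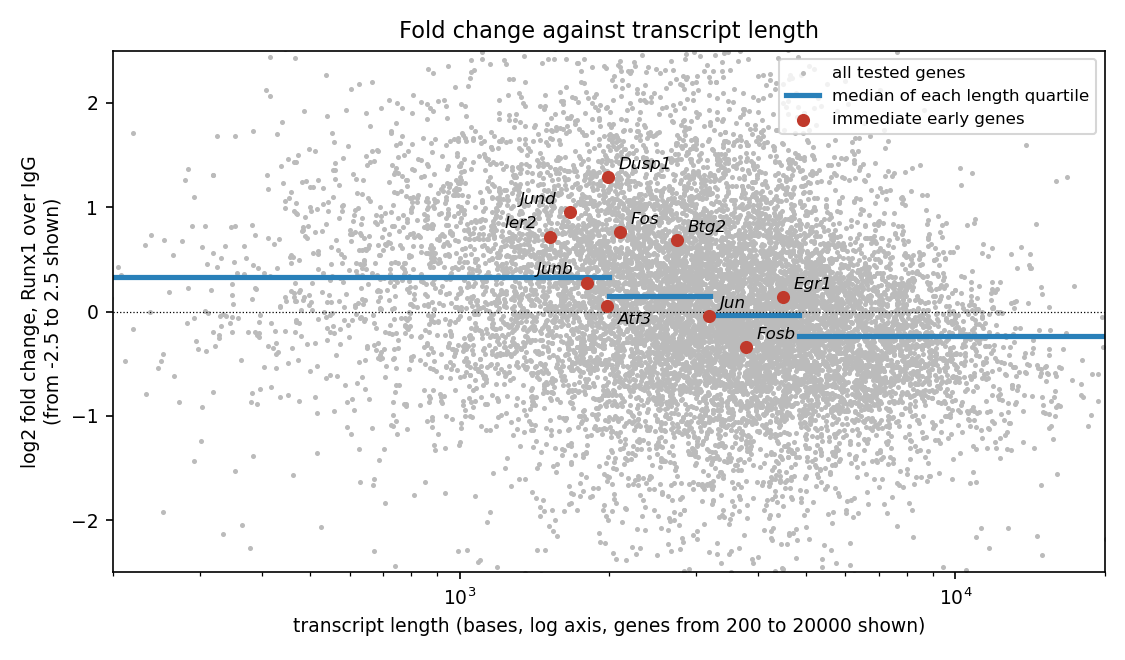
Log2 fold change against transcript length on a log axis for the tested genes (grey), the immediate early genes (red) and the median of each length quartile (blue). The blue lines step down from 0.33 to -0.24, and the longest members, Egr1, Fosb and Jun, lie lower than most of the shorter ones.

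Other early response genes were examined as lists. Of 24 further transcription factors of the early response, 16 were tested and 0 were called by edgeR or limma-voom, nor by DESeq2 among the 4 that kept an adjusted p. Their median log2 fold change was 0.47, and 12 of 16 were above 0, beside 51.5% of all tested genes. By unadjusted edgeR p (threshold 0.05) 2 were higher and 0 lower, beside 6.88% and 7.35% of all tested genes. Which genes of this list were called changed with a library left out, as it did over all tested genes. Klf4, a factor that blood flow induces in endothelium, stood at 31.6 and 39.2 against 7.81 and 8.06 CPM, apart in every library (log2 fold change 2.13 ± 0.63, edgeR adjusted p = 0.189). Id3, an inhibitor of helix-loop-helix factors downstream of BMP, stood at 175 and 245 against 122 and 137 CPM (0.67 ± 0.26, edgeR adjusted p = 0.294). Csrnp1 (1.31 ± 0.65) and Id1 (0.51 ± 0.26) were the next by p. Among the 8 too low to test, Fosl1 and Egr4 had 0 counts in all 4 libraries, and Egr2 had 57 counts in IgG replicate 2 and at most 1 elsewhere.

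Of 36 early response effectors 30 were tested and 0 called by edgeR or limma-voom, nor by DESeq2 among the 12 that kept an adjusted p. Their median was 0.21, and 17 of 30 were above 0, beside 51.5% of all tested genes. By unadjusted edgeR p 2 were higher and 1 lower, beside 6.88% and 7.35% of all tested genes. Leaving out a library changed the calls in this list, as it did over all tested genes. Pim3, a survival kinase, stood at 20.3 and 73.1 against 16.9 and 5.64 CPM, and Plk3, a stress kinase, at 9.55 and 57.8 against 8.85 and 4.43 CPM. For both, Runx1 replicate 2 was far above Runx1 replicate 1. Zfp36l2, which binds AU-rich elements, stood at 82.4 and 108 against 130 and 171 CPM (log2 fold change -0.68 ± 0.30, edgeR adjusted p = 0.348). Btg1, the relative of Btg2, stood at 53.7 and 67.8 against 84.6 and 113 CPM (-0.72 ± 0.35, edgeR adjusted p = 0.402). Btg1 and Btg2 thus lay on opposite sides, and neither passed.

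The genes that act upstream and downstream of the early mRNAs leaned the other way, with medians below 0. Of 35 genes of MAP kinase signalling to SRF and CREB, 34 were tested and 0 were called by edgeR. With DESeq2 4 were called lower among 26 with an adjusted p, beside 6.07% of all genes with one. Limma-voom called 3 lower, beside 0.968% of all tested genes. The median of the list was -0.24, with 7 of 34 above 0, beside 51.5% of all tested genes. By unadjusted edgeR p 1 was higher and 6 lower, beside 6.88% and 7.35% of all tested genes. Calls in the signalling list changed when a library was left out, as they did over all tested genes, and a group then held a single library. Creb1, whose protein binds the element shown in Btg2 and Dusp1, stood at 509 and 494 against 770 and 818 CPM (log2 fold change -0.69 ± 0.13, edgeR adjusted p = 0.0676). Elk4, a partner of SRF, stood at 341 and 388 against 581 and 572 CPM (-0.69 ± 0.16, edgeR adjusted p = 0.102). Nras (-0.57 ± 0.16) was also among those with the smallest p. Srf itself was at -0.084.

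Of 32 genes for decay of AU-rich and short-lived mRNAs, all were tested and 0 were called by edgeR. With DESeq2 3 were called lower among 24 with an adjusted p, beside 6.07% of all genes with one. Limma-voom called 2 lower, beside 0.968% of all tested genes. The median was -0.27, with 13 of 32 above 0. By unadjusted edgeR p 1 was higher and 7 lower, beside 6.88% and 7.35% of all tested genes. With a library left out, calls in the decay list changed in both directions, as they did over all tested genes. The decapping enzyme gene Dcp2 stood at 502 and 498 against 887 and 778 CPM (log2 fold change -0.76 ± 0.14, edgeR adjusted p = 0.0566). Hnrnpd, whose protein AUF1 binds AU-rich elements, stood at 498 and 521 against 846 and 728 CPM (-0.66 ± 0.14, edgeR adjusted p = 0.0924). Pan3 (-0.84 ± 0.23) and Btg3 (-2.10 ± 0.82) were the next by p. Of 21 other AP-1 and related bZIP genes 14 were tested and 0 called by edgeR or limma-voom. With DESeq2 1 was called lower among 8 with an adjusted p, beside 6.07% of all genes with one. The median was -0.29, with 6 of 14 above 0. By unadjusted edgeR p 0 were higher and 2 lower, beside 6.88% and 7.35% of all tested genes. Mafg, a small partner without an activating domain, stood at 428 and 472 against 615 and 616 CPM (-0.48 ± 0.15, edgeR adjusted p = 0.199), and Bach1, a repressor that pairs with such partners, at 84.2 and 73.1 against 133 and 165 CPM (-0.95 ± 0.29, edgeR adjusted p = 0.200). Nfe2l1 (-0.36 ± 0.25) and Fosl2 (-0.73 ± 0.59) followed. After the length and GC correction the medians were 0.25 for the transcription factors, -0.043 for the effectors, -0.30 for signalling, -0.11 for decay and -0.10 for the bZIP genes.

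By edgeR 0.306% of all tested genes were called higher, and 3.28% of those with a mean of at least 100 CPM in either direction. Beside these shares, heat shock genes, the other common sign of handling, were the list with calls. Of 12, 9 were tested, 2 rose (Hsp90aa1 at 7230 and 6759 against 3849 and 4286 CPM, and Hspa8 at 1980 and 1648 against 1074 and 1106 CPM; edgeR adjusted p = 0.00858 and 0.0436), 0 fell and 7 did not pass. After the length and GC correction 1 was called higher, and with the replicate block 0. The median of the list after that correction was 0.47, beside 0.11 for the immediate early genes. Under spike-in scaling 0 were called higher and 3 of 9 lower, beside 31.6% of all tested genes called lower. Hsp90aa1 and Hspa8 both lie in the class of at least 100 CPM. Hspa1a had 0 to 6 counts per library and Hspa1b 0 or 1, both too low to test. The cause of the 2 calls was not tested. Dnajb1, a stress-inducible co-chaperone, stood at 38.2 and 121 against 23.7 and 26.2 CPM (log2 fold change 1.65 ± 0.57, edgeR adjusted p = 0.249). Hspa5 stood at -0.27 ± 0.11.

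**Figure D4:**
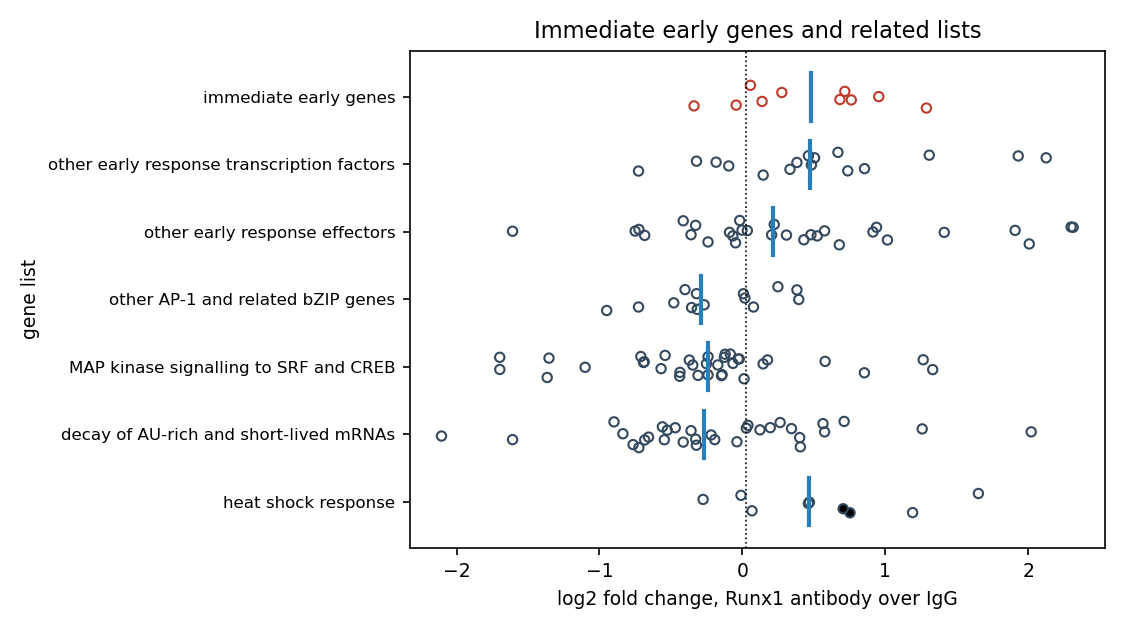
Log2 fold change of each tested gene by list (circles, filled where called), the median of each list (blue) and the median of all tested genes (dotted line). Before any length and GC correction, immediate early genes, other early transcription factors and heat shock genes have medians of 0.47 to 0.48. The bZIP, signalling and decay lists have medians of -0.29 to -0.24.

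Some markers of other cells were also at a higher share with the Runx1 antibody. Summed erythroid markers stood at 885 and 908 CPM for Runx1 beside 517 and 493 for IgG, with 9 of 12 tested and 8 above 0. Macrophage markers stood at 152 and 230 against 102 and 103 CPM (6 of 10 tested), mesenchymal markers at 1412 and 1462 against 1309 and 1249 (9 of 10), neural markers at 683 and 555 against 516 and 463 (7 of 10), epithelial markers at 174 and 166 against 172 and 142 (6 of 7), and haematopoietic markers at 215 and 292 against 320 and 257 (7 of 10). Above 0 were 4 of 6 tested macrophage, 6 of 9 mesenchymal, 5 of 7 neural, 3 of 6 epithelial and 1 of 7 haematopoietic markers. Among the macrophage markers Csf1r alone stood at 144 CPM in Runx1 replicate 2 and at 9.67 to 12.5 CPM elsewhere, and without it the sums were 139.66 and 86.4 against 89.8 and 93.1 CPM, which overlap. By edgeR 0 markers were called in these lists. Higher by unadjusted edgeR p were 4 erythroid, 2 macrophage, 2 mesenchymal, 1 neural and 1 epithelial genes, beside 6.88% of all tested genes. Lower were 1 mesenchymal and 1 neural gene, beside 7.35%. DESeq2 called 2 erythroid genes higher among 5 with an adjusted p, and 1 macrophage gene among 2. Of all genes with an adjusted p, DESeq2 called 4.34% higher. With limma-voom 0 of these markers were called. None was at 0 in all 4 libraries, though Gfi1 had 1 count in total and Cd68 had 0 in both Runx1 libraries. The part of these cells in the members' values was not tested.

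Over the 4 libraries, the genes whose pattern was most like the members' average profile were Cluh, Flnc, Col3a1, Tnfaip1 and Slc12a7, by the smallest distance between centred log2 CPM profiles among 4083 named coding genes of at least 50 CPM. The distances ran from 0.053 to 0.082. Their log2 fold changes ran from 0.39 (Slc12a7) to 0.50 (Col3a1), and none was called. Values near the members' average follow from choosing genes by this distance.

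In the mm10 annotation Fos lies on chromosome 12 (85473890 to 85477273), Fosb on 7 (19302696 to 19310051), Jun on 4 (95049034 to 95052222), Junb on 8 (84974484 to 84978718), Jund on 8 (70698949 to 70700616) and Ier2 on 8 (84661331 to 84662852). Atf3 lies on chromosome 1 (191170296 to 191218039), Btg2 on 1 (134075170 to 134079120), Dusp1 on 17 (26505590 to 26562128) and Egr1 on 18 (34859823 to 34864984). Junb and Ier2 thus lie close together. Apart from the antisense genes of Jun and Jund, no further gene matched a member over 200 bases or longer at 95% identity, so that Fos and Fosb, or the 3 Jun genes, do not share reads through long identical stretches.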

How the data were processed

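The authors deposited raw counts per Ensembl gene, whole numbers with no normalization, with a column for each library. The build mm10 and the tools STAR 2.7.3a, Salmon 1.1.0 and Trimmomatic 0.36 are named, without roles, per the submitters' processing notes; the annotation, strand setting and filters were not given in the sources used here. Groups came from sample titles. Of 55573 identifiers, 55480 matched GENCODE M21, whose longest coding transcript gave length, GC content and 3′ UTR. The 92 ERCC rows stayed out of library sizes and tests. The test was edgeR's quasi-likelihood test (version 4.0.16, under R 4.3.3; TMM, filterByExpr defaults, minimum count 10 and total 15, no block, two-sided) over 4 libraries, adjusted by Benjamini-Hochberg over 12401 genes. SEs follow from the test statistic. DESeq2 1.42.0 and limma-voom (limma 3.58.1) were alternatives, as were other scalings and filters, each library left out, and splines of 5 degrees of freedom for length and GC as offsets. The fit was tested on simulated data. Near-identical copies were sought with blastn 2.17.0. Replicate differences correlated at 0.0044 between the antibodies.

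All members were named, and of each list the called genes and up to 4 with the smallest p; 1 of these is not reported here. Members and lists were chosen with earlier results of these data known.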

Additional observations from a re-analysis of the deposited data

Results flagged for a closer look

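The spike-in RNAs, which no comparison of genes uses in its main form, took a larger share of the libraries made with the Runx1 antibody than of the IgG libraries. They stood at 367 ± 15.6 against 152 ± 32.8 counts per 1000000 gene counts (mean ± SD, n = 2 each), a ratio of 2.42. Per 1000 spike-in counts the 10 immediate early genes had 2782 and 2884 counts with Runx1 and 7184 and 4887 with IgG.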

How the results depend on the processing

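Of 140 member values under 14 alternatives, 124 kept their sign and 2 were called, both under spike-in scaling. That scaling put 8 members below 0 (Fos -0.48, Junb -0.995, Jund -0.29, Egr1 -1.20, Ier2 -0.59, Atf3 -1.13, Dusp1 -0.067, Btg2 -0.52), their median at -0.79 and the ratio of summed levels at 0.469, and called 19 genes higher and 3914 lower; one factor per library moves all genes alike. The length and GC correction turned Junb (-0.15), Egr1 (-0.0074) and Atf3 (-0.28), gave a median of 0.11 and called 22 and 6. Leaving out each library gave Junb -0.15 to 0.56, Egr1 -0.22 to 0.58, Atf3 -0.41 to 0.70, Jun -0.27 to 0.20, a median of 0.29 to 0.66, a summed ratio of 1.11 to 1.23, and 94 to 248 higher and 80 to 352 lower genes; this summed ratio was added after seeing the data. Otherwise the main 38 higher and 42 lower became 224 and 325 with no filter, 125 and 160 with 10 counts in every library, 106 and 124 at a false discovery rate of 0.1, 102 and 120 under limma-voom, and 246 and 344 under DESeq2. With the replicate block they became 2 and 0, though nothing in the labels pairs the numbers, and no member's call changed, while both heat shock calls were lost. The cause of the moved counts was not tested. Counts of 23 to 197 in the 6 less abundant members limit these values, with SEs of 0.44 to 0.63.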
